A study of Rattus norvegicus with 6 samples.

Results

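The miR-199a and miR-214 cluster was followed in exosomes of rat bone marrow mesenchymal stem cells (MSCs) through its 4 mature miRNAs, rno-miR-199a-3p, rno-miR-199a-5p, rno-miR-214-3p and rno-miR-214-5p. They were taken by name, 1 line each, from the 749 mature miRNAs of the deposited count table, and all 4 were present. MSCs of Sprague-Dawley rats were flushed from tibia and femur of male animals and used at passages 3 to 4. One group of exosomes, MSCs-exo, came from untreated MSCs, and the other, MSCsTXL-exo, from MSCs given 400 μg/mL of the Chinese medicine compound Tongxinluo (TXL) for 24 h. In both groups the exosomes were pelleted by ultracentrifugation from medium with exosome-free serum conditioned for 48 h, and 3 small RNA libraries were sequenced per group. No source used here tells if the 3 libraries of a group stand for different cultures or animals. The p-values therefore describe the spread between libraries, which may be technical.

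In vertebrates the hairpins of miR-199a-2 and miR-214 are cut from one long noncoding transcript, known in mouse and human as Dnm3os, which runs against the direction of the dynamin gene Dnm3. The transcript is typical of mesenchymal cells such as fibroblasts, and in mouse it is induced by the transcription factor Twist1. Each hairpin can give a mature miRNA from its 5′ arm (5p) and from its 3′ arm (3p), and bases 2 to 8 of a mature miRNA, its seed, guide it to target mRNAs. miR-199a-5p is known to lower caveolin-1 in lung fibroblasts and to promote fibrosis there. miR-199a-3p is known to promote proliferation of neonatal rat cardiomyocytes, and miR-214-3p is known in mouse heart to restrain the sodium-calcium exchanger. The study asked which exosomal miRNAs differed after TXL, and named miR-214 among miRNAs linked to the modulation of inflammation.

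In the GRCr8 annotation of RefSeq, Mir199a2 and Mir214 lie on the forward strand of chromosome 13 and are 5310 bases apart. Both lie within the span of Dnm3 (chr13:76892381-77371346), which is on the reverse strand. The deposited table gives every member a start 3009262 bases higher than GRCr8 does, so that the members keep their distances, and its genome build is not given in the sources used here. All 4 members matched the RefSeq table by name, and their mature sequences are shown with the seed in capitals because the seed decides which other miRNAs could share their targets.
rno-miR-199a-3p: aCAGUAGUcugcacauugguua
rno-miR-199a-5p: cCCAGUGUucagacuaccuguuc
rno-miR-214-3p: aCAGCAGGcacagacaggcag
rno-miR-214-5p: aGAGUUGUcaugugucu

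They lie at chr13:77116294-77116315 (miR-199a-3p), chr13:77116255-77116277 (miR-199a-5p), chr13:77121713-77121733 (miR-214-3p) and chr13:77121656-77121672 (miR-214-5p). No other miRNA of the table that has a RefSeq sequence (682 of 749) shares any of the 4 seeds. The seeds of miR-199a-3p and miR-214-3p differ from each other at 2 of 7 positions. A sequence with the same letters as miR-199a-3p is also cut from a miR-199b hairpin in human and mouse, and molecules from hairpins with the same mature letters cannot be told apart by sequencing.

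The annotated rat miR-214-5p is 17 bases long, against 21 to 23 bases for the other members. The Mir214 hairpin of RefSeq (GRCr8, chr13:77121645-77121752, forward strand) is shown to place it, with miR-214-5p and miR-214-3p in capitals.
Mir214: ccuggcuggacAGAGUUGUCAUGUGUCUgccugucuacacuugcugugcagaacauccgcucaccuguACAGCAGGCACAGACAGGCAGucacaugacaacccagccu
Counted from 1 at the 5′ end of the hairpin, miR-214-5p takes up positions 12 to 28 and miR-214-3p positions 69 to 89. In the fold of lowest energy that RNAfold predicts, 18 bases of miR-214-3p are paired, with partners at positions 27 to 47. Only 2 of these 18 partners are bases of the annotated miR-214-5p. The reverse strand holds another annotated miRNA, rno-miR-3120, which is the reverse complement of positions 28 to 48 and is described below although it is not a member.

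The libraries held 382665 to 1792805 unique molecular identifiers (UMIs), tags that let copies made by PCR be counted once. They are named by their group and by the number 10, 12 or 13 of their column in the table, whose meaning the sources used here do not give, and values of a group stand in that order below. Levels are in CPM, the usual scale of counts relative to a library total, and the totals were scaled by TMM (trimmed mean of M values) factors of 0.861 to 1.14. Where no UMI was found, the level could still reach 1.95 to 7.50 CPM, depending on the library (3 UMIs, for counting error only). Over 12 listed mesenchymal miRNAs, all tested, the summed level was 261564 to 335533 CPM in MSCs-exo and 281362 to 343907 CPM in MSCsTXL-exo. Of markers of other cells, 4 hematopoietic miRNAs summed to 316 to 423 CPM in MSCs-exo and 205 to 306 CPM in MSCsTXL-exo, and 3 erythroid ones to 22.7 to 35.2 CPM and 17.4 to 31.8 CPM. The 5 epithelial miRNAs were too low to be tested, with up to 14 UMIs a library for 1 of them. The 4 muscle miRNAs summed to 404 to 831 CPM in MSCs-exo and 127 to 510.0 CPM in MSCsTXL-exo. Nearly all of this was miR-206-3p, with a mean of 464 CPM over the 6 libraries. The means of miR-1-3p, miR-133a-3p and miR-133b-3p were 3.53, 5.20 and 3.45 CPM. Of the muscle miRNAs only miR-206-3p was tested, with a log2 fold change of -1.22 (unadjusted p = 0.0589 from edgeR). Sums over both groups were 809 to 1406 CPM for 2 endothelial miRNAs, 107 to 252 CPM for 1 of the liver and 17.5 to 72.0 CPM for 3 neuronal ones. Of the 34 marker miRNAs 21 were tested, and 0 of these 21 passed both thresholds used below. The part of such cells in the values of the members was not tested.

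Counted by mature sequence, the cluster was one of the largest contributors to exosomal miRNA, through a single arm. Where another hairpin gives the same letters as miR-199a-3p, its molecules would be counted here too. miR-199a-3p had the second rank by mean level among the 749 miRNAs of the table, after miR-125b-5p, and ranked 2 to 4 in each library. It took up 7.17%, 8.50% and 7.59% of the UMIs of the MSCs-exo libraries and 6.90%, 8.94% and 6.19% of those of the MSCsTXL-exo libraries. miR-199a-5p ranked 38, miR-214-3p ranked 85 and miR-214-5p ranked 613. Of the summed level of the cluster, miR-199a-3p made up 95.8%, miR-199a-5p 3.36%, miR-214-3p 0.817% and miR-214-5p 0.00463%. The order of the 4 members was the same in each of the 6 libraries, with no overlap between neighbours in that order. A UMI counts a molecule whatever its length, but how well each sequence was ligated was not measured, so levels of different miRNAs rest on equal capture.

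**Figure D1:**
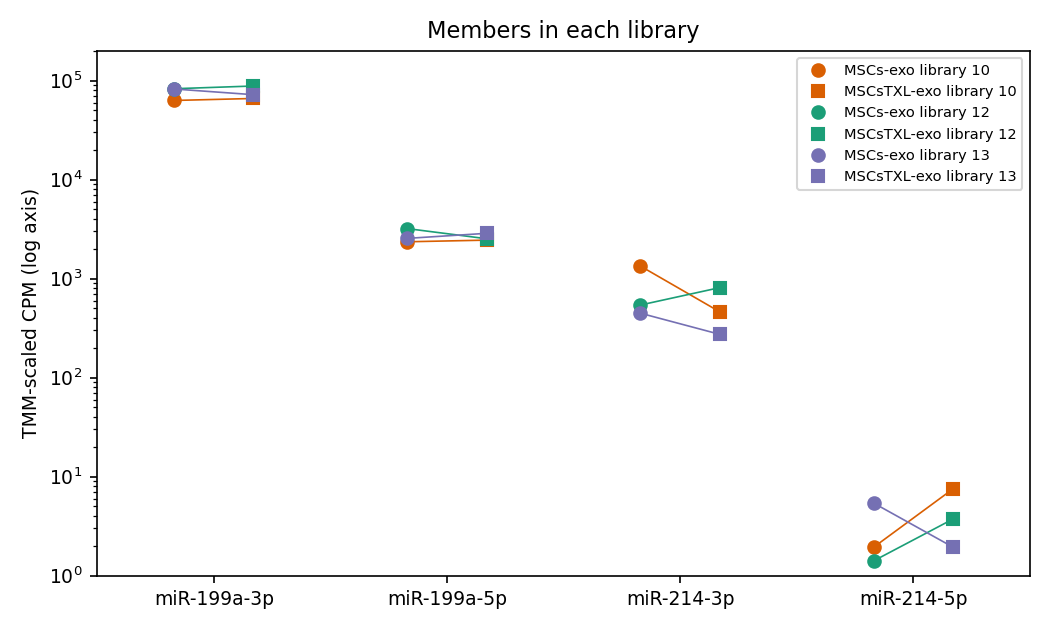
Level of each member in each library, in TMM-scaled CPM on a log axis, with circles for MSCs-exo, squares for MSCsTXL-exo, and a line joining libraries of the same number. miR-199a-3p lies between 62945 and 88098 CPM in all 6 libraries, while miR-214-3p runs from 274 to 1338 CPM.

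miR-199a-3p differed between the groups by far less than between the libraries of a group. MSCs-exo held it at 62945, 82696 and 82193 CPM, and MSCsTXL-exo at 65950, 88098 and 72001 CPM. The groups overlapped, and the lowest library of each was number 10. The mean of MSCs-exo was 75945 ± 11261 CPM (SD, n = 3) and that of MSCsTXL-exo 75349.8 ± 11448 CPM (SD, n = 3). The log2 fold change of MSCsTXL-exo over MSCs-exo was -0.01 (standard error 0.20, 95% interval -0.47 to 0.45). Its Benjamini-Hochberg adjusted p = 0.9925 came from the quasi-likelihood test of edgeR. Within a library number, MSCsTXL-exo had 1.05-fold (10), 1.07-fold (12) and 0.876-fold (13) the level of MSCs-exo.

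miR-199a-5p, the less abundant arm of the same hairpin, was found at 2355, 3198 and 2548 CPM in MSCs-exo. MSCsTXL-exo held it at 2446, 2528 and 2865 CPM. All 3 MSCsTXL-exo values fell inside the range of MSCs-exo. Its means were 2700 ± 442 CPM (SD, n = 3) and 2613 ± 222 CPM (SD, n = 3), a log2 fold change of -0.05 (standard error 0.24, 95% interval -0.61 to 0.52; adjusted p = 0.9925 from edgeR). For both arms of miR-199a the interval excludes a 2-fold difference in either direction. The sign of so small a difference changed when single libraries were left out, and for miR-199a-3p also with upper quartile scaling.

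miR-214-3p, the more abundant annotated arm of the second hairpin, was lower on average in MSCsTXL-exo. The difference did not pass the test, and its direction rested on 1 library. MSCs-exo held 692, 384 and 413 UMIs of it, or 1338, 541 and 447 CPM. MSCsTXL-exo held 185, 653 and 422 UMIs, or 462, 810.3 and 274 CPM. MSCs-exo library 10 was the highest and MSCsTXL-exo library 12 the next, so each group had 1 high library and the groups overlapped. The means were 775 ± 489 CPM (SD, n = 3) and 515 ± 272 CPM (SD, n = 3), a log2 fold change of -0.59 (standard error 0.56, 95% interval -1.88 to 0.70; adjusted p = 0.9925 from edgeR). Without MSCs-exo library 10 the log2 fold change was 0.04, and without MSCsTXL-exo library 12 it was -1.08 with an unadjusted p = 0.108 from edgeR. The direction also differed between library numbers, with log2 ratios of MSCsTXL-exo to MSCs-exo of -1.53 (10), 0.58 (12) and -0.71 (13).

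The annotated miR-214-5p was at the limit of detection. As it hardly overlaps the predicted partners of miR-214-3p, its counts need not reflect the strand paired with miR-214-3p. The MSCs-exo libraries held 1, 1 and 5 UMIs of miR-214-5p and each MSCsTXL-exo library held 3, or 16 in all. It did not pass the filter on low counts. In CPM without TMM scaling these are 1.45 to 7.84, and the widest exact binomial 95% interval, that of MSCsTXL-exo library 10, ran from 1.62 to 22.9 (counting error only). Summed over libraries, its share in MSCsTXL-exo was 0.928-fold that in MSCs-exo, with an exact 95% interval of 0.308 to 2.93 for counting error only. These counts do not tell apart ratios within this interval. The direction depends on how libraries are weighted, since the means of TMM-scaled levels were 2.92 ± 2.18 CPM in MSCs-exo and 4.39 ± 2.83 CPM in MSCsTXL-exo (SD, n = 3 each for miR-214-5p). Without MSCs-exo library 13 the log2 ratio of the summed shares was 0.79, and edgeR without a filter gave a log2 fold change of 0.22.

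Of the 392 miRNAs left after low counts were filtered out, 14 (3.57%) differed over 2-fold with an unadjusted p under 0.05 in edgeR, the thresholds of the study, and 0 of the 3 tested members were among them. That count was 6 without MSCs-exo library 10 or 12, 38 without MSCs-exo library 13 and 25 without MSCsTXL-exo library 13. At an adjusted p under 0.05 edgeR called 0 miRNAs (0%), as did DESeq2 and limma-voom, with 14 at an unadjusted p under 0.05 in edgeR. The groups did not overlap for 29 of the 392 (7.4%), and for 0 of the 3 tested members. When the library number was added as a block, 29 miRNAs (7.4%) passed both thresholds of the study, again with 0 of the 3 members. This block is called the replicate block below, although what the number marks is not given. In that fit 1 miRNA, not a member, passed an adjusted p under 0.05. The blocked log2 fold changes were -0.01 for miR-199a-3p, -0.04 for miR-199a-5p and -0.55 for miR-214-3p, with adjusted p = 0.9801, 0.9743 and 0.7256 from edgeR. The median log2 fold change over all 392 was 0.03.

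**Figure D2:**
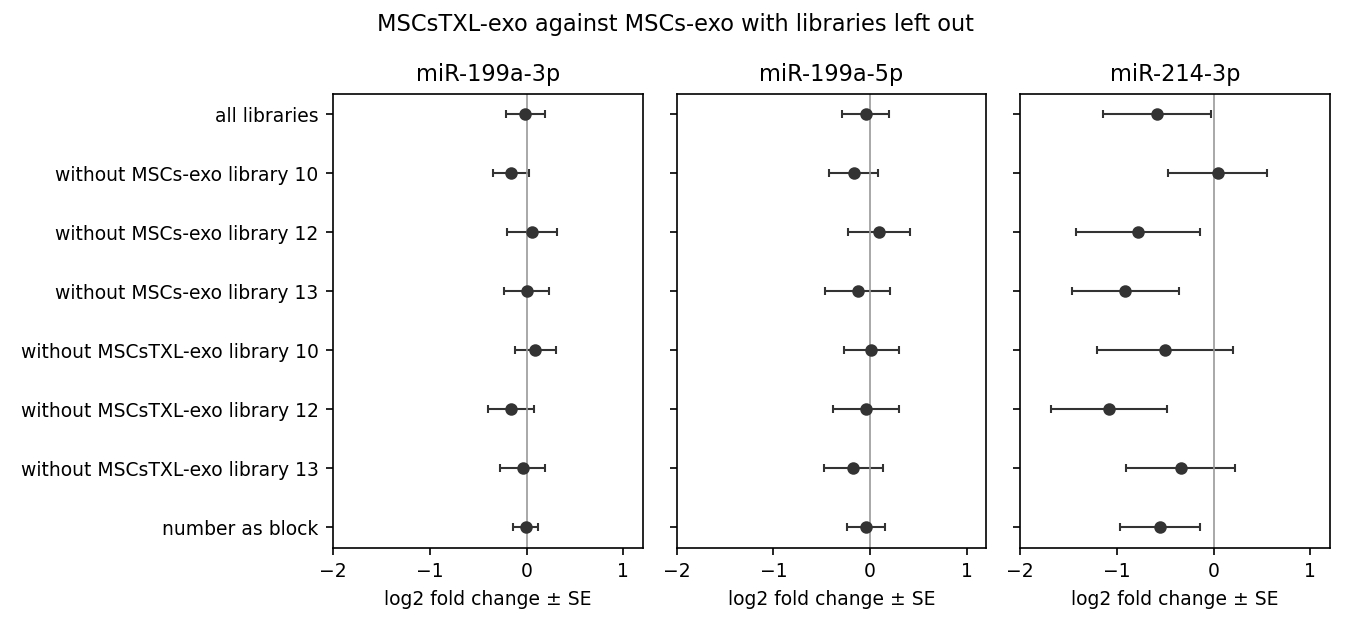
Log2 fold change of MSCsTXL-exo over MSCs-exo from edgeR, with bars of 1 standard error, for all libraries, with each library left out, and with the library number as a block. miR-199a-3p stays between -0.16 and 0.09, whereas miR-214-3p runs from -1.08 to 0.04, the last without MSCs-exo library 10.

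The members also differed in how much they varied between libraries. miR-199a-3p had a coefficient of variation (CV) of 13.4% over the 6 libraries and miR-199a-5p one of 11.9%, against a median of 38.9% over the 392 tested miRNAs. From the lowest CV they ranked 18 and 13. Tested miRNAs next to them in mean level also varied less than the median of all. Their median CV was 17.2% beside miR-199a-3p, with 1 of 6 below it. Beside miR-199a-5p it was 22.4%, with 1 of 10 below that arm. miR-214-3p had a CV of 59.1% (rank 297), and its highest library held 4.89 times its lowest, against 1.40 times for miR-199a-3p and 1.36 times for miR-199a-5p. Counting alone would give CVs of 0.437%, 2.32% and 4.99% for the 3 miRNAs on average, so the spread was above counting error for each. All of the 10 tested miRNAs next to miR-214-3p in mean level, such as miR-101a-3p just above it and miR-379-5p just below it, had a lower CV than it had (median 30.5%).

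**Figure D3:**
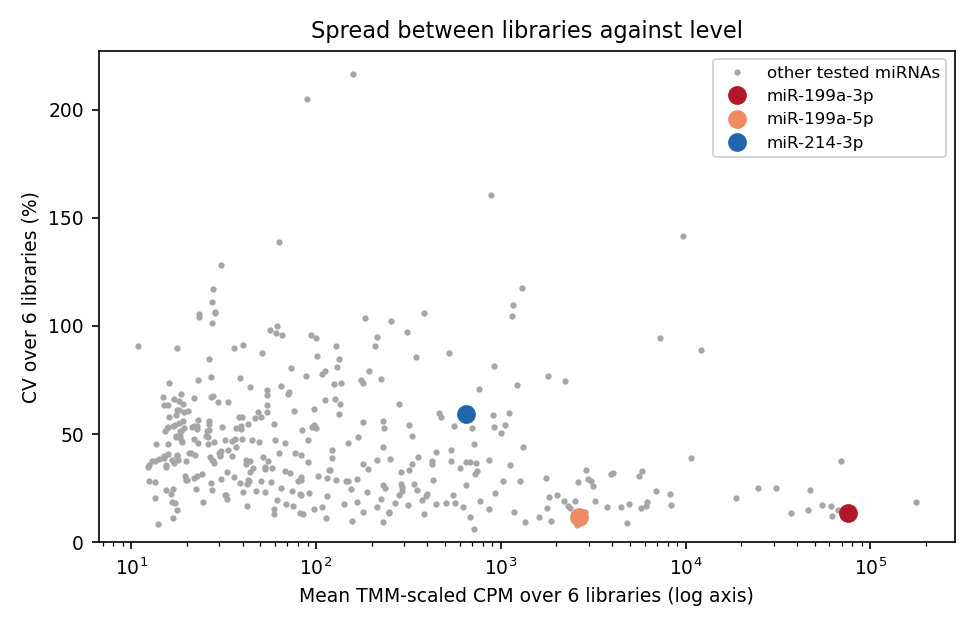
CV over the 6 libraries in percent against the mean level in TMM-scaled CPM (log axis) for the 392 tested miRNAs, with the 3 tested members marked. Both arms of miR-199a lie near the floor of the cloud at 13.4% and 11.9%, and miR-214-3p lies at 59.1%.

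The balance between the arms of miR-199a was steady. In MSCs-exo the 3p arm held 26.7, 25.9 and 32.3 times the UMIs of the 5p arm, and in MSCsTXL-exo 27.0, 34.9 and 25.1 times. On the log2 scale the ratio was 4.81 ± 0.17 (SD, n = 3) in MSCs-exo and 4.84 ± 0.25 (SD, n = 3) in MSCsTXL-exo, a difference of 0.03. A two-sided exact permutation test gave p = 0.8, and with 3 libraries a group its smallest possible p is 0.1. This ratio is taken within a library and does not depend on the scaling. Where another hairpin gives the same letters as miR-199a-3p, its molecules are part of the 3p count. Both arms were tested for 111 hairpins of the table, of which 45 had more of the 3p arm. Over the 6 libraries the log2 arm ratio of miR-199a had an SD of 0.19, the smallest of the 111 (median 0.65), a description of these libraries without a test. The hairpins of miR-324 (0.198) and miR-126a (0.214) came close to it. The 111 were not matched for counts, and few UMIs of either arm widen this SD through counting error. The groups did not overlap for the arm ratio of 8 of the 111 hairpins (7.21%), and miR-199a was not one of them.

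**Figure D4:**
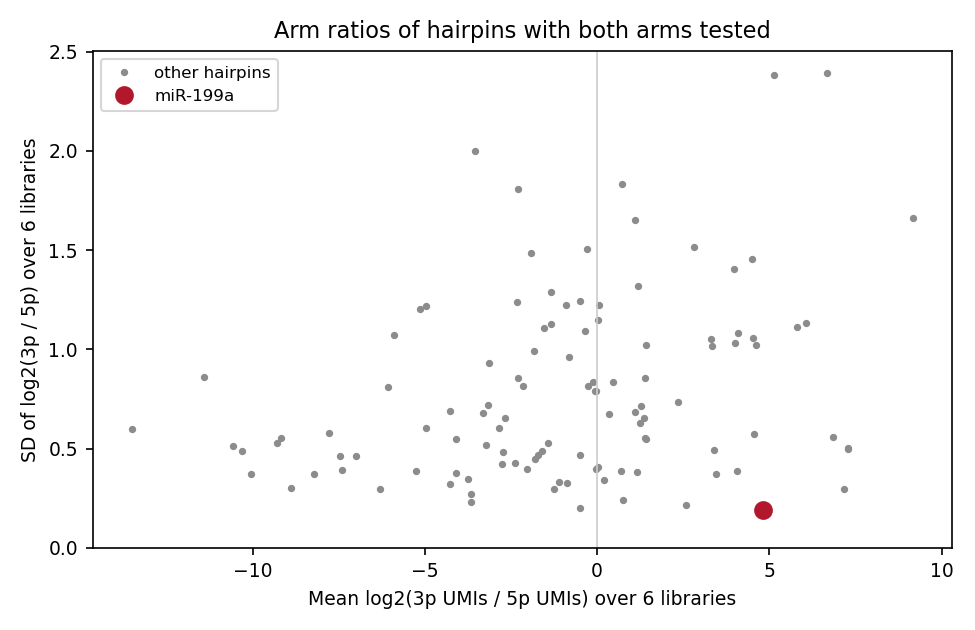
SD over the 6 libraries of the log2 ratio of 3p to 5p UMIs against its mean, 1 point for each of the 111 hairpins with both arms tested. The point of miR-199a lies lowest, at an SD of 0.19, with that of miR-324 next at 0.198.

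In MSCs-exo the UMIs of miR-214-3p were 692, 384 and 82.6 times those of miR-214-5p, and in MSCsTXL-exo 61.7, 218 and 141 times. Given 1 to 5 UMIs of miR-214-5p a library, these ratios carry a large counting error. The difference of -1.18 on the log2 scale (8.13 ± 1.58 in MSCs-exo and 6.95 ± 0.92 in MSCsTXL-exo, SD, n = 3 each) had p = 0.3 in the exact two-sided permutation test. It was -0.53 without MSCs-exo library 10 and -2.06 without MSCs-exo library 13. As the annotated 5p hardly overlaps the predicted partners of miR-214-3p in the hairpin shown above, this is a ratio of 2 annotated arms and not of the strands of a duplex.

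The ratio between the hairpins varied more across the libraries than the ratio between the arms of miR-199a. In MSCs-exo, miR-199a-3p held 47.1, 153 and 184 times the UMIs of miR-214-3p, and in MSCsTXL-exo 143, 109 and 263 times. MSCs-exo library 10 stood lowest, and the other 5 libraries of both groups were interleaved. The log2 ratio was 6.78 ± 1.07 (SD, n = 3) in MSCs-exo and 7.32 ± 0.65 (SD, n = 3) in MSCsTXL-exo (exact two-sided permutation test, p = 0.6). The difference of 0.54 became -0.07 without MSCs-exo library 10. Its SD over the 6 libraries was 0.84, beside a median of 0.74 over 365 pairs of tested miRNAs from different hairpins of 1 strand within 10 kb, and a median of 0.88 over all 76636 pairs of tested miRNAs. By this measure, taken up after the values were seen, 56.7% of the pairs within 10 kb and 46.6% of all pairs were steadier than miR-199a-3p with miR-214-3p. The pairs were not matched for counts, and few UMIs of either miRNA widen this SD through counting error.

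The summed level of the 4 members was 66639.8, 86437 and 85194 CPM in MSCs-exo. In MSCsTXL-exo it was 68866, 91440 and 75141 CPM. The means were 79424 ± 11089 CPM (SD, n = 3) and 78483 ± 11652 CPM (SD, n = 3), with p = 1 in the exact two-sided permutation test. It follows miR-199a-3p, which makes up nearly all of it. After Benjamini-Hochberg adjustment the 4 permutation tests, of both arm ratios, of the ratio between the hairpins and of this sum, all had p = 1.

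The tested miRNAs most like each member were those with the smallest SD, over the 6 libraries, of their log2 ratio to it. For miR-199a-3p these were miR-103-3p (SD 0.08), often used as a reference in miRNA assays, miR-28-3p (0.11) and let-7f-5p (0.13). For miR-199a-5p they were miR-145-3p (0.11), from a hairpin of smooth muscle and mesenchymal cells, miR-155-5p (0.12), known from inflammation, and miR-99b-5p (0.14), and its sister arm miR-199a-3p came 12 of 391. For miR-214-3p they were miR-551b-5p (0.22), miR-483-3p (0.23), from an intron of the growth factor gene Igf2, and miR-210-5p (0.25), from the hypoxia-induced miR-210 hairpin. miR-199a-3p came only 158 of 391 in its list.

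Like miR-214-3p itself, the 3 miRNAs nearest to it were highest in MSCs-exo library 10, next in MSCsTXL-exo library 12 and lowest in MSCsTXL-exo library 13. They were picked for their likeness to it over these same libraries, so a shared order largely follows from the choice. miR-483-3p, for example, was at 151, 60.6 and 42.2 CPM in MSCs-exo, where MSCsTXL-exo held 40.0, 104 and 23.4 CPM. They rest on few molecules, with 7 to 31 UMIs a library for miR-551b-5p, 16 to 84 for miR-483-3p and 13 to 43 for miR-210-5p. This placing of the 3 libraries was found for 15 of the 392 tested miRNAs, which include miR-214-3p and its 3 nearest. MSCs-exo library 10 was highest for 110. What sets these libraries apart was not tested.

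miR-3120, named after its values were seen, lies on the strand opposite to miR-214 at chr13:77121672-77121692 and so follows the direction of Dnm3. MSCs-exo held it at 77.3, 67.6 and 99.6 CPM, and MSCsTXL-exo at 72.5, 65.8 and 67.5 CPM. The groups overlapped, and MSCs-exo library 10, the highest for miR-214-3p, was not the highest here. Its log2 fold change was -0.25 (standard error 0.37, 95% interval -1.11 to 0.61; adjusted p = 0.9925 from edgeR). The log2 ratio of miR-3120 to miR-199a-3p had an SD of 0.30 over the libraries, and its ratio to miR-214-3p, the arm of the opposite strand, one of 0.82.

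Other miRNAs linked to fibrosis were compared as a frame for the cluster. Of 8 listed miRNAs known to promote it, 5 were tested, with 2 positive log2 fold changes and 3 negative ones (median -0.01), and 0 passed both thresholds of the study. The most abundant of them was miR-21-5p, with a mean of 45807 CPM and a log2 fold change of -0.21, and the largest difference was that of miR-382-5p, at -1.53 with an unadjusted p = 0.0789 from edgeR. Of 11 listed miRNAs known to restrain fibrosis, 9 were tested, with 8 positive log2 fold changes and 1 negative one (median 0.21), and again 0 passed both thresholds. miR-29a-3p, which lowers collagens, had a mean of 24667 CPM and a log2 fold change of 0.22, and let-7d-5p had 0.36. Over all 392 tested miRNAs, 206 were positive. miR-199a-3p thus stood above each of the listed fibrosis miRNAs in level, and miR-199a-5p between miR-34a-5p (2848 CPM) and let-7d-5p (2530 CPM).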

How the data were processed

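Exosomal small RNA was made into QIAseq libraries, and the submitters' notes list cutadapt 2.7 and Bowtie 1.2.2. The values used are the UMI counts deposited by the authors, with no normalization. Of the 749 miRNAs, 69 stand on several lines (833 in all) that repeat the same counts and were merged. CPM columns of the authors (6) were left aside. Columns starting with M were taken as MSCs-exo and those starting with T as MSCsTXL-exo.

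edgeR 4.0.16 in R 4.3.3 was fitted to all miRNAs (TMM, filterByExpr with a minimum count of 10 and total of 15, quasi-likelihood test without a block), and p-values were adjusted over all 392 tested. Alternatives were DESeq2 1.42.0, limma-voom (limma 3.58.1), other scalings and filters, a replicate block and each library left out. After subtraction of group means, the correlation between same-numbered libraries was 0.434 (10), 0.179 (12) and 0.70 (13), so the number served as the block, although MSCsTXL-exo library 12 was closer to MSCs-exo library 10 (0.347). The number rises with the library total in both groups, so the block cannot be told apart from depth. The Mir214 hairpin was folded with RNAfold 2.7.2. Likeness used an offset of 0.5 UMI. Named besides the members were the 3 miRNAs nearest to each tested member in likeness, its neighbours in level and listed fibrosis miRNAs. The members and lists were chosen with earlier results of these data known.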

Additional observations from a re-analysis of the deposited data

How the results depend on the processing

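No member passed the thresholds under any alternative run. miR-199a-3p (log2 fold change -0.01) reversed only with upper quartile scaling (0.0021) and without MSCs-exo library 12 or 13 or MSCsTXL-exo library 10, and lay between -0.161 and 0.0904 with a library left out. miR-199a-5p lay between -0.173 and 0.092 and reversed without MSCs-exo library 12 or MSCsTXL-exo library 10. miR-214-3p lay between -1.08 and 0.0397 and reversed without MSCs-exo library 10 and, in an alternative added after the data were seen, without both libraries numbered 10 (0.12). miR-214-5p could be fitted only with no filter (0.22). With a library left out, its ratio of summed shares lay between -0.49 and 0.79 on the log2 scale. The log2 differences of the arm ratios lay between -0.11 and 0.13 (miR-199a) and between -2.06 and -0.53 (miR-214), that of the ratio between the hairpins between -0.07 and 0.91, and that of the summed level between -0.14 and 0.07. Leaving out 1 of 3 libraries cannot shift a difference of group means by more than the spread between libraries. No judgement of steadiness is therefore drawn from these ranges. The count of miRNAs past both thresholds, 14, was 24 with DESeq2, 9 with limma-voom, 34 with no filter, 6 with at least 10 counts in every library, 29 with the replicate block, 28 with DESeq2 and the replicate block, and 6 (without MSCs-exo library 10 or 12) to 38 (without MSCs-exo library 13) with a library left out, with 25 without MSCsTXL-exo library 13. The count at an adjusted p under 0.05 was 1 with the replicate block and 14 with DESeq2 and the replicate block, and 0 (lowest and highest) with a library left out. The replicate block changed no call of a member. The cause of these shifts was not tested. With 3 libraries per group and the spread of miR-214-3p, differences of the size seen for it could not be called.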
